A study of Mus musculus with 4 samples.

Results

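The unfolded protein response is the set of signals that a cell sends when unfolded proteins build up in the endoplasmic reticulum (ER). It was followed here through 35 genes chosen by name: 15 ER chaperones and folding enzymes, 7 genes of ER-associated degradation, 7 stress sensors and transcription factors, and 6 targets of the transcription factor ATF4. Of the 35 genes, 34 had a value and 32 reached 1 FPKM in 2 or more libraries and were tested, among 11969 tested genes. Edem1, a lectin of ER-associated degradation, was not analysed here, and Derl3 (under 1 FPKM in all libraries) and Ddit3 (listed at 0 in all, which can be a failed estimate) did not enter the test. The cells were stem cells of primary squamous cell carcinomas (SCC-SCs) from the skin epidermis of mice of the strain given as C57BL/6 X FBV. All 4 libraries shared 1 genotype, TetO-Hras with LV-rtTA3-TGF-beta reporter: an Hras transgene behind tetracycline operator sites (TetO), the tetracycline-controlled activator rtTA3 that switches such transgenes on, and a reporter by which cells with transforming growth factor beta (TGF-beta) signalling make the red protein mCherry. After removal of other lineages, cells carrying integrin alpha6 and CD44 were sorted into a reporter negative fraction (no TGF-beta signalling) and a reporter positive fraction (TGF-beta signalling), once in each of 2 experiments, which gave n = 2 libraries per fraction. The labels do not give the age of the mice, the promoter that drives rtTA3, or whether animals were pooled or differed between experiments, and a p-value here covers the spread among the 4 libraries and nothing wider, which may be technical.

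Proteins that are secreted or sit in the cell surface fold in the ER with the help of chaperones such as BiP (gene Hspa5). When folding falls behind, the membrane sensors IRE1 (Ern1), PERK (Eif2ak3) and ATF6 (Atf6) become active. IRE1 cuts a short intron out of Xbp1 messenger RNA in the cytoplasm, which shifts the reading frame so that an active transcription factor is made. ATF6 is cut in the Golgi and enters the nucleus, where it raises chaperone genes. PERK phosphorylates the translation factor eIF2, which slows most translation but favours ATF4, and ATF4 raises genes of amino acid supply, such as Asns, and of stress feedback, such as Trib3. Other kinases phosphorylate eIF2 as well, so ATF4 targets can move apart from ER chaperones, and the groups are kept apart below.

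The sequences on which this response works are shown first. The intron that IRE1 removes from Xbp1 has 26 bases and lies in exon 4 of the transcript ENSMUST00000063084, inside its coding sequence. The reference transcripts place it at bases 818 to 843. The letters CAG stand both just before this stretch and at its end, so a start at the earlier CAG gives the same spliced product. The ends given here are therefore those of the annotation, and the cut sites of IRE1 were not determined. Its place in GRCm38 is chr11:5524282-5524307, plus strand, and the sequence is from GENCODE M21. Capitals mark the intron as annotated, with 15 bases on each side:
Xbp1 short intron: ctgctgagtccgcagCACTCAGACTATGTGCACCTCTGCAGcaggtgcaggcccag

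The ER stress response element (ERSE) is the promoter motif through which ATF6 and XBP1 act, made of CCAAT and CCACG with 9 free bases between them. It was searched on both strands of the RefSeq promoters (GRCm38.p6; 250 bases before to 50 after the start of each gene), where 31 of the 35 genes had an entry, all but Hyou1, Manf, Derl1 and Atf6. The motif was found in 9 of these 31 promoters (29.0%) and in 37 of 27025 genes (0.137%). It began 44 (Syvn1) to 212 (Hsp90b1) bases before the start site, and Hsp90b1, the ER form of the heat shock protein HSP90, held it in 2 places. The matches are shown with 5 bases on each side, on the strand that reads as the motif, with the fixed letters in capitals:
Hspa5, chr2:34772020-34772048, strand of the gene: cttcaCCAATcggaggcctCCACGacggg
Hsp90b1, chr10:86705633-86705661, strand of the gene: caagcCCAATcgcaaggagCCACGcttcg
Hsp90b1, chr10:86705528-86705556, strand opposite to the gene: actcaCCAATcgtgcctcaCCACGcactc
Calr, chr8:84847070-84847098, strand opposite to the gene: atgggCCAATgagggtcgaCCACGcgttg
Canx, chr11:50325795-50325823, strand of the gene: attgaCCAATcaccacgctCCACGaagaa
Pdia6, chr12:17266486-17266514, strand of the gene: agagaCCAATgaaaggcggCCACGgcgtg
Dnajc3, chr14:118937822-118937850, strand of the gene: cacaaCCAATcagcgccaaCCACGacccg
Creld2, chr15:88819515-88819543, strand opposite to the gene: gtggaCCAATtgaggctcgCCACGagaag
Syvn1, chr19:6046527-6046555, strand of the gene: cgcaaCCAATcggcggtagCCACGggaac
Derl3, chr10:75893237-75893265, strand opposite to the gene: gctagCCAATggggaagtcCCACGgtaga

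The promoter of Hspa5, the gene most often read as the output of this response, shows the setting of its motif. In the 250 bases before its start (chr2:34771840-34772089, plus strand), CCAAT occurred 4 times counting both strands, and 1 of them completed the exact motif, in capitals:
Hspa5 upstream: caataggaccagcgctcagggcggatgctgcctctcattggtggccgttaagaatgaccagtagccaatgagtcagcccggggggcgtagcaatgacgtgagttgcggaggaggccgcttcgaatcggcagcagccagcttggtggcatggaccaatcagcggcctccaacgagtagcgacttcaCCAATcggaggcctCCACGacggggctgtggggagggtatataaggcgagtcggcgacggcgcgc

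ATF4 acts with C/EBP partners through the element TGATGNAA (CARE). It was found in 4 of the 31 promoters (12.9%) and in 4.51% of all promoters, and 3 of the 4 genes are ATF4 targets by the list. The matches, with 5 bases on each side and the fixed letters in capitals, were:
Trib3, chr2:152344034-152344051, strand opposite to the gene: ccggcTGATGtAAacctg
Asns, chr6:7693220-7693237, strand of the gene: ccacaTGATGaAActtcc
Chac1, chr2:119351044-119351061, strand opposite to the gene: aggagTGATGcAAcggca
Herpud1, chr8:94386312-94386329, strand opposite to the gene: cgggcTGATGcAAcccgc
In Trib3 the match lay after the start site, in the other genes before it. The XBP1 element TGACGTGG (UPRE), whose complement contains the CCACG of the ERSE, was found in 0 of 31 promoters and in 0.714% of all. CCACG alone was in 26 of the 31 promoters and in 35.5% of all. These are matches of letters, and no binding was measured.

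The comparison asks how tumour stem cells with TGF-beta signalling differ from those without it, here in their handling of ER proteins. None of the 32 tested genes passed an adjusted p of 0.05 (limma on log2(FPKM + 1), Benjamini-Hochberg over all 11969 genes), where 607 genes (5.07%) passed, 305 higher (2.55%) and 302 lower (2.52%) in reporter positive cells. The adjusted p of the 32 genes ranged from 0.0863 to 0.937. At an unadjusted p under 0.05 there were 7 of the 32, against 3062 genes (25.6%): Hsp90b1, Pdia4, Pdia6, Sdf2l1 and Phgdh were lower (18% of all genes were), and Syvn1 and Trib3 higher (7.59% of all genes). FPKM is the number of fragments scaled to transcript length and library size, and a difference always means reporter positive minus reporter negative in log2(FPKM + 1), with its SE. On that scale the changes of genes with few fragments come out too small. In RNA from a pool of cells, fewer cells of a type and less RNA per cell cannot be told apart.

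All values have to be read against a general offset, since the median difference of all tested genes was -0.18. Median-of-ratios scaling moved that median to 0.01 and quantile normalization to -0.03, and the split of called genes from 305 higher and 302 lower to 419 and 195 or 406 and 250. With no scaling the median difference was -0.16 for the 15 chaperones, 0.029 for 5 degradation genes, 0.12 for 6 sensors and factors and 0.065 for 6 ATF4 targets. Over all 32 genes it was -0.015, and -0.071 over the 30 that were above 0 in every library. The median of the chaperones lay close to that of all genes and the medians of the other groups above it, and this distance was not tested. The median of the sensors and factors went opposite ways in the 2 experiments (0.15 and -0.12). Both reporter positive libraries lay below both reporter negative ones for 11 of the 32 genes, against 42.6% of all genes, and above them for 6, against 15.3%. None of the 32 was 2-fold apart in both experiments, which held for 678 of all genes.

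**Figure D1:**
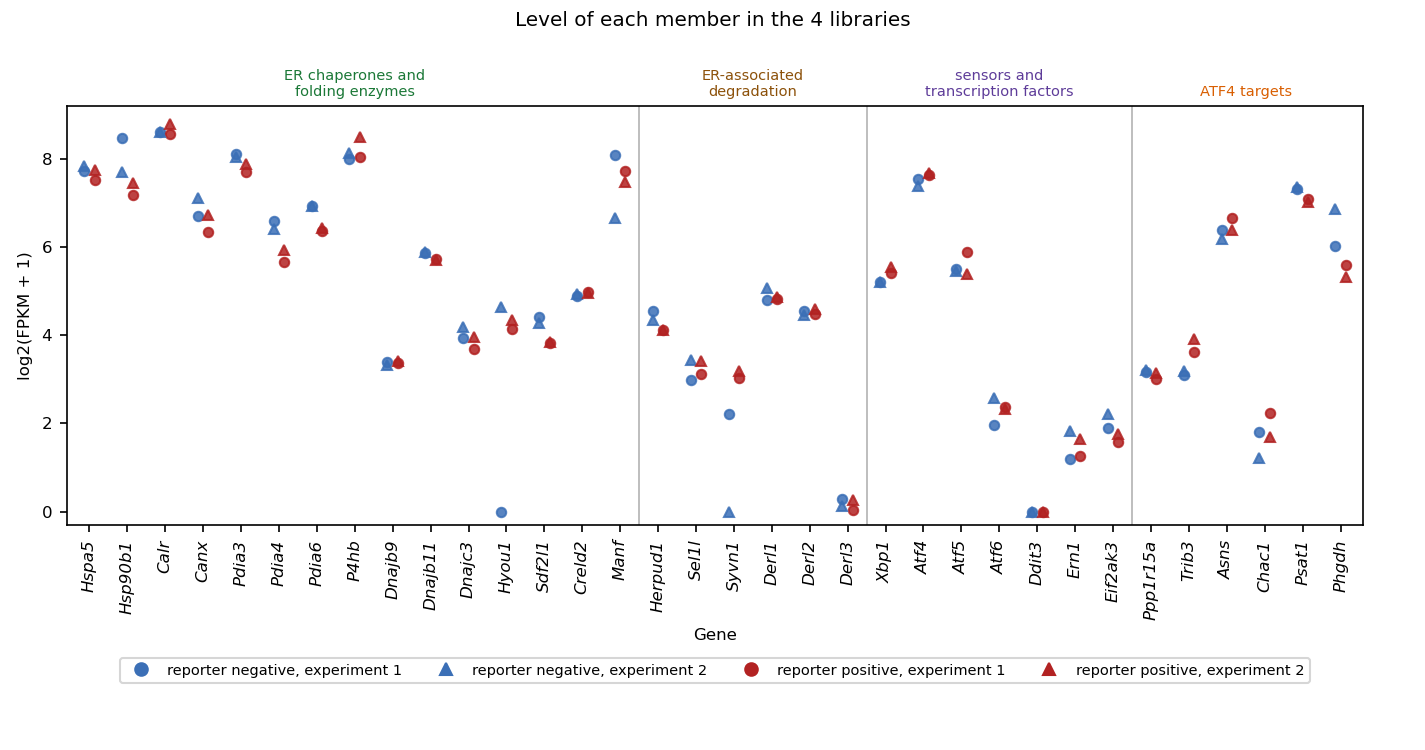
Level of the 34 genes with a value on the log2(FPKM + 1) scale (vertical axis) in the 2 reporter negative (blue) and 2 reporter positive (red) libraries; circles are experiment 1 and triangles experiment 2. Most chaperones sit above 4 and the sensors Atf6, Ern1 and Eif2ak3 below 3, and in most genes the 4 points lie close together; Hyou1 and Syvn1 each have 1 reporter negative library at 0, and Ddit3 is at 0 in all 4.

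These counts depended on how the experiment and zeros were treated. With the experiment as a replicate block, again 0 of 32 passed, against 1250 genes (10.4%). Without genes listed at 0 in any library, Pdia4 passed (adjusted p = 0.0499), against 10.5% of genes. With both, 6 passed: Hsp90b1, Pdia4, Pdia6, Sdf2l1 and Phgdh lower, and Trib3 higher, against 3144 of 11496 genes (27.3%), so their share was below that of all genes. The count of 607 rests on every library: leaving out the reporter negative library of experiment 1 gave 179, that of experiment 2 gave 3, and leaving out the reporter positive library of experiment 1 or 2 gave 74 or 45, and Syvn1 alone of the 32 passed in the first of these (1.5% of all genes did), where its only reporter negative value was a listed 0.

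The ER chaperones and folding enzymes included some of the most abundant transcripts, with the means of Hspa5 and Calr at percentiles 95.5 and 97.7 of all tested genes. The smallest p-values among them were those of Pdia4 and Pdia6, protein disulfide isomerases, the enzymes that form and rearrange disulfide bonds. Of 15 genes, 0 passed the test, 4 had an unadjusted p under 0.05, all lower, where all genes leaned the same way (2154 lower and 908 higher), and 9 were lower in both experiments, 2 higher in both and 4 opposite. Over all 32 genes these counts were 14, 8 and 10, where 54.2% of all genes were lower in both and 20.7% higher in both. The summed level of the 15 chaperones was 2203 and 1968 FPKM in reporter negative libraries (experiments 1 and 2) and 1729 and 1989.9 in reporter positive ones. In experiment 2 the sums were close, but Manf gave 101 against 178 FPKM there. In experiment 1 Hsp90b1 gave 352 against 143, and Hyou1 was listed at 0 in the reporter negative library. These values rest partly on short transcripts or on a listed 0 (below), so the sums are a description only.

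Pdia6 (chr12:17273351-17291576, mm9, plus strand), a disulfide isomerase that also binds BiP, gave 121 and 122 FPKM in reporter negative cells (experiments 1 and 2) and 81.6 and 85.3 in reporter positive cells. The libraries of each fraction were close together, and the fractions did not overlap. The means were 121 ± 0.81 and 83.5 ± 2.6 (SD, n = 2 each), a difference of -0.53 ± 0.13 (adjusted p = 0.0863, and 0.051 with the experiment as a block). Pdia4, a disulfide isomerase with several thioredoxin-like domains, gave 94.7 and 83.7 FPKM in reporter negative and 49.9 and 60.6 in reporter positive libraries. It too had no overlap, with a difference of -0.69 ± 0.16 (adjusted p = 0.0863). Against the median of all genes these differences were -0.35 for Pdia6 and -0.51 for Pdia4. The exact ERSE was found in the promoter of Pdia6, as shown above. In that of Pdia4 only CCACG alone was found within the bases searched, and inexact matches were not looked for.

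Sdf2l1, a partner of ER-resident DnaJ proteins, gave 20.3 and 18.3 FPKM in reporter negative and 13.2 and 13.3 in reporter positive libraries. Its reporter positive values were nearly equal and lay below both others (-0.51 ± 0.15; adjusted p = 0.127). Hsp90b1, which folds integrins and Toll-like receptors, gave 352 and 207 FPKM against 143 and 173. Here 1 library decided the size: the reporter negative library of experiment 1 stood far above the rest, and the difference was -0.77 ± 0.29 (adjusted p = 0.188), or -0.39 without that library. In that library 196 of the 352 FPKM lay on a short transcript of 731 bases assembled from the reads, which no other library listed. The full-length reference transcript (2825 bases) gave 156 and 207 against 143 and 173 FPKM, a difference of -0.19.

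Hspa5, which encodes BiP and spans chr2:34627612-34632051 (mm9, plus strand), gave 211 and 229 FPKM in reporter negative and 183 and 213 in reporter positive libraries. The fractions overlapped, and the difference was -0.15 ± 0.15 (adjusted p = 0.569; 95% interval -0.55 to 0.24), which is 0.024 above the median of all genes. Calr (calreticulin, a lectin-like chaperone of glycoproteins) had the largest mean of the group, with 389 and 392 FPKM against 379 and 445 (0.072 ± 0.16; adjusted p = 0.815). A pseudogene copy, Calr-ps, was listed at 11 to 13.5 FPKM, and how reads were shared between them is not stated. Canx (calnexin, its membrane-bound relative) gave 103 and 136 against 80.2 and 105 FPKM. Pdia3, which acts with both lectins, gave 276 and 262 against 206 and 235. Both were lower in each experiment and did not pass, and the direction of Canx turned (0.23) with reference transcripts only.

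P4hb (protein disulfide isomerase proper, also a subunit of collagen prolyl hydroxylase) gave 254 and 279 FPKM in reporter negative and 263 and 358 in reporter positive libraries, a difference of 0.20 ± 0.20 (adjusted p = 0.573). Among the co-chaperones that steer BiP, Dnajb9 stayed between 9.04 and 9.61 FPKM in all 4 libraries, Dnajb11 between 51.1 and 58.3, and Dnajc3 between 11.9 and 17.3. Creld2, a small secreted ER stress protein, stayed between 28.7 and 30.7. The 95% intervals of Dnajb9, Dnajb11 and Creld2 were -0.39 to 0.44, -0.48 to 0.17 and -0.28 to 0.40.

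Manf, a secreted ER stress factor, went opposite ways: 273 and 101 FPKM in reporter negative and 210.3 and 178 in reporter positive libraries of experiments 1 and 2 (0.22 ± 0.48; adjusted p = 0.815). Its main reference transcript (951 bases) alone gave 131 and 101 against 100.3 and 91.6, and the rest lay on transcripts of 497 to 502 bases that differed between libraries. Hyou1, the large chaperone that exchanges the nucleotide of BiP, was listed at 0 in the reporter negative library of experiment 1 and at 24.0 FPKM in that of experiment 2, against 16.8 and 19.2 in reporter positive cells. The file marks a transcript of Hyou1 as fully covered by reads in the library at 0, so this 0 can be a failed estimate. Without that library the difference was -0.40.

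ER-associated degradation returns misfolded proteins to the cytosol for the proteasome. Of its 5 tested genes 0 were called and 1 (Syvn1) had an unadjusted p under 0.05. The sum stayed between 80.0 and 85.3 FPKM in all 4 libraries, with Syvn1 counted at 0 in the reporter negative library of experiment 2. That 0 can be a failed estimate, so an equal level cannot be read from the sum. Herpud1, which gathers the degradation complex, gave 22.3 and 19.3 FPKM in reporter negative and 16.4 and 16.2 in reporter positive libraries. The fractions did not overlap, but the difference of -0.33 ± 0.15 did not pass (adjusted p = 0.258). Sel1l, the adaptor of the ligase complex, gave 6.89 and 9.76 against 7.64 and 9.69 FPKM. Derl1, a channel protein and the most abundant of the group, gave 26.8 and 32.5 against 27.5 and 28.0 FPKM, with overlap (-0.085 ± 0.16; adjusted p = 0.777). Its relatives Derl2 and Derl3 stayed at 21.1 to 23.0 and at 0.024 to 0.22 FPKM. Syvn1, the ubiquitin ligase of the complex, gave 3.66 FPKM and 0 in reporter negative and 7.17 and 8.17 in reporter positive libraries. The 0 again came with a transcript marked as fully covered. Its difference within experiment 1, where both libraries had a value, was 0.81. There the transcript listed in both libraries (3464 bases) gave 3.66 FPKM in reporter negative and 3.59 in reporter positive cells. The rest lay on another reference transcript (2780 bases), at 3.58 FPKM in the reporter positive library, not marked as fully covered. It had no value above 0 in the reporter negative library, so the 0.81 rests on that transcript.

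The sensors were present at low levels and their factors at high ones, and 0 of 6 tested genes passed, with none at an unadjusted p under 0.05. Ern1 (IRE1) gave 1.30 and 2.53 FPKM in reporter negative and 1.41 and 2.12 in reporter positive libraries. Atf6 gave 2.92 and 5.0 against 4.17 and 4.03. Both overlapped, with differences of -0.056 ± 0.30 and 0.072 ± 0.27. Eif2ak3 (PERK) gave 2.71 and 3.62 FPKM against 2.0 and 2.39, which did not overlap (-0.38 ± 0.22; adjusted p = 0.343). Ddit3 (CHOP, the factor tied to cell death under ER stress) was listed at 0 in all 4 libraries, with a transcript marked as fully covered in 3 of them, so nothing can be read from its value.

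Atf4 had the largest mean among these genes, with 186 and 167 FPKM in reporter negative and 198 and 204 in reporter positive libraries. The positive libraries were both higher, by 0.19 ± 0.14 (adjusted p = 0.448). Its relative Atf5 gave 44.1 and 42.8 against 57.9 and 41.1 FPKM, higher in experiment 1 only. The levels of Atf4 and Atf5 messenger RNA do not read out their proteins, which are set by translation.

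Xbp1 gave 35.8 FPKM in each reporter negative library and 41.7 and 45.8 in the reporter positive ones. The fractions did not overlap, and the difference was 0.28 ± 0.13 (adjusted p = 0.264), or 0.46 above the median of all genes. Cufflinks split the gene into 2 reference forms, 1 that keeps the 26-base intron printed above (ENSMUST00000063084, 2129 bases) and 1 that lacks it (ENSMUST00000109866, 1772 bases). The form that lacks it was given 31.3 and 30.3 FPKM in reporter negative and 37.0 and 40.5 in reporter positive libraries. The form that keeps it was given 4.53 and 5.49 against 4.77 and 5.32. The 2 forms also differ at their ends, and the files mark the form lacking the intron as not fully covered by reads in all 4 libraries and the other as fully covered in all 4. The share is therefore not a measure of cleavage by IRE1. It was 87.3% and 84.7% in reporter negative and 88.6% and 88.4% in reporter positive libraries.

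**Figure D2:**
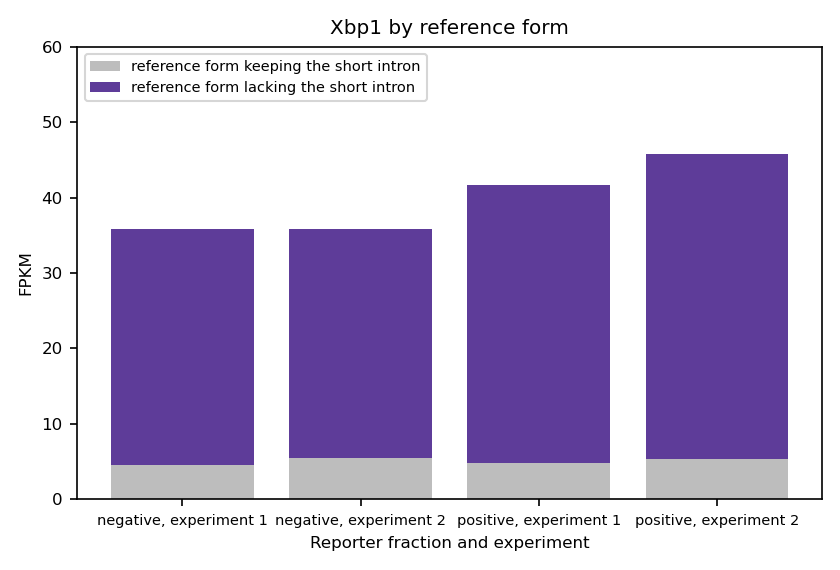
Xbp1 in each library as FPKM (vertical axis), split into the reference form that keeps the 26-base intron (grey) and the form that lacks it (purple). Bars are single libraries; the total is 35.8 in both reporter negative libraries and 41.7 and 45.8 in the reporter positive ones, and the grey part stays between 4.53 and 5.49.

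The ATF4 targets split in opposite directions: 3 of 6 were higher in both experiments (Trib3, Asns and Chac1) and 3 lower in both (Phgdh, Psat1 and Ppp1r15a), with 0 of 6 called. Ppp1r15a lay 0.071 above the median of all genes and turned positive under median-of-ratios scaling (0.083) and quantile normalization (0.10). The 3 that were higher are the ones whose promoters hold the element TGATGNAA printed above, which at 6 genes is a description only. Herpud1, the fourth member with the element, was lower in both experiments (-0.42 and -0.24). Over all 215 tested genes with the element 7 passed as higher and 8 as lower (2.55% and 2.52% of all genes did). Their median was -0.21 beside -0.18 for all genes. Trib3, a pseudokinase that feeds back on ATF4, gave 7.54 and 8.16 FPKM in reporter negative and 11.4 and 14.0 in reporter positive libraries. The fractions did not overlap, and the difference was 0.62 ± 0.18 (adjusted p = 0.126), or 0.80 above the median of all genes. Asns (asparagine synthetase) gave 82.5 and 71.8 against 99.6 and 83.0 FPKM, just without overlap (0.24 ± 0.16; adjusted p = 0.409). Chac1, which degrades glutathione, gave 2.47 and 1.31 against 3.72 and 2.25 FPKM, with overlap (0.47 ± 0.32; adjusted p = 0.404).

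Phgdh, the first enzyme of serine synthesis, gave 64.5 and 115 FPKM in reporter negative and 47.6 and 38.9 in reporter positive libraries. The fractions did not overlap, and the difference of -0.98 ± 0.30 was the largest downward one among the 32 genes (adjusted p = 0.136), and -0.57 without reporter negative replicate 2. In the reporter negative library of experiment 2, 65.3 of the 115 FPKM lay on an assembled transcript of 578 bases, and with reference transcripts alone the difference was -0.55. Psat1, the next enzyme of that pathway and the ATF4 target with the largest mean, gave 157 and 163 against 135 and 128 FPKM (-0.28 ± 0.13; adjusted p = 0.253). Ppp1r15a (GADD34, which reverses eIF2 phosphorylation) stayed between 7.10 and 8.24 FPKM.

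**Figure D3:**
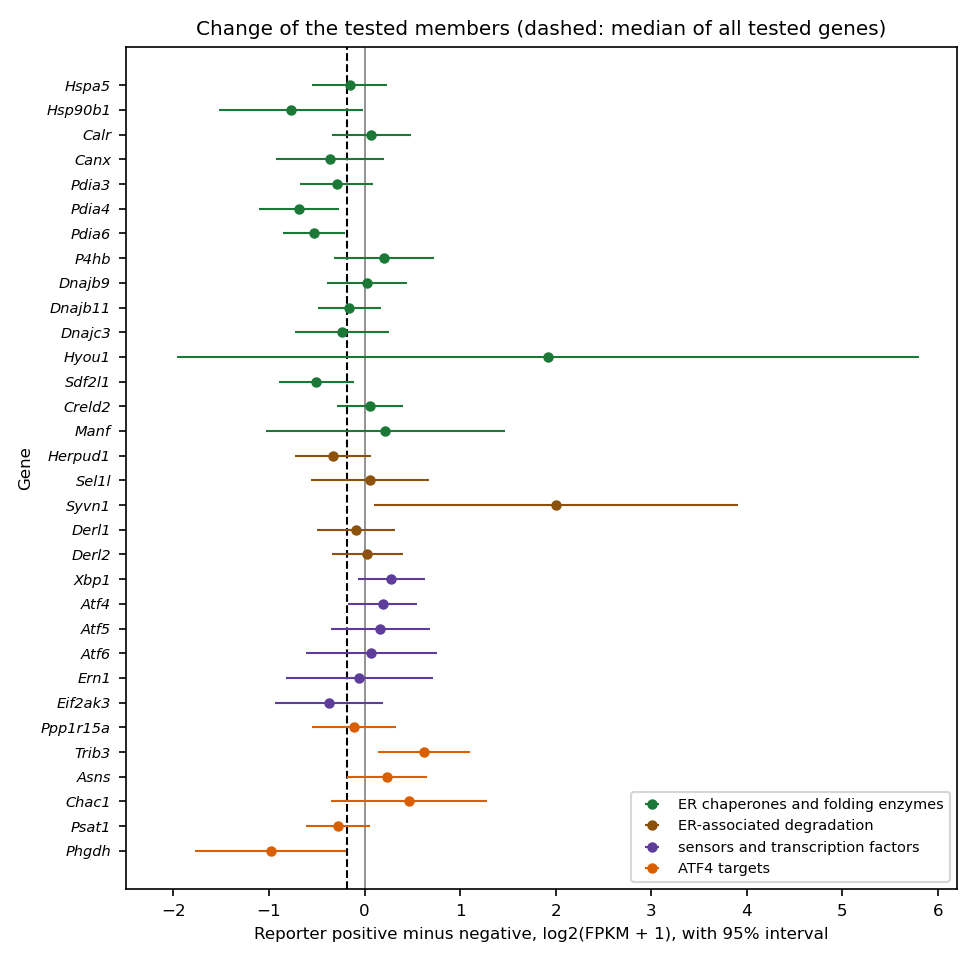
Difference between reporter positive and negative libraries for the 32 tested genes on the log2(FPKM + 1) scale (horizontal axis), with 95% intervals from limma, coloured by role; the dashed line is the median of all 11969 tested genes, -0.18. The intervals include 0 except for the 7 genes with an unadjusted p under 0.05, and the widest are those of Hyou1 and Syvn1, each with 1 library at 0.

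**Figure D4:**
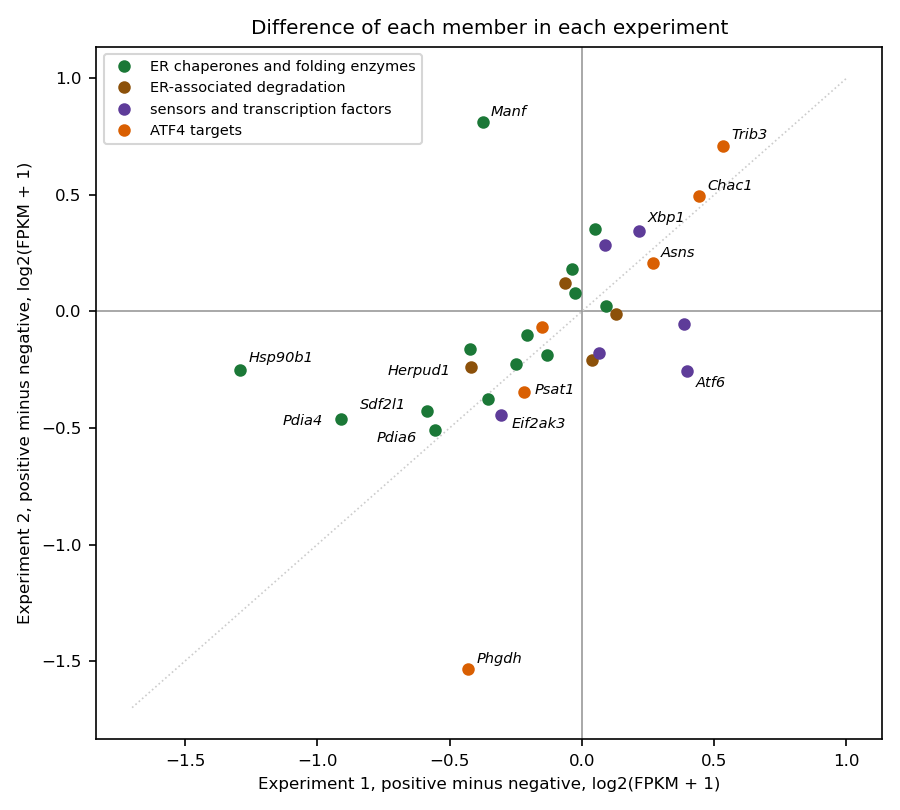
Difference of the 30 tested genes above 0 in every library in experiment 1 (horizontal axis) and experiment 2 (vertical axis), log2(FPKM + 1), coloured by role; the dotted line marks equal differences. Pdia4, Pdia6, Sdf2l1 and Hsp90b1 lie lower left and Trib3, Chac1, Asns and Xbp1 upper right, while Manf and Atf6 lie on opposite sides of 0 in the 2 experiments.

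The direction of several genes depended on which transcripts were summed, because 17 of the genes had transcripts assembled from the reads, 15 of them in some libraries only. With reference transcripts alone, the differences of Calr (-0.44), Manf (-0.79) and Atf6 (-0.87) turned negative and those of Canx (0.23), Dnajc3 (0.075), Derl1 (0.29), Ern1 (0.051) and Eif2ak3 (0.38) positive. Trib3 (0.70), which had an assembled transcript, kept its direction. Pdia6 (-0.53), Sdf2l1 (-0.51), Asns (0.24), Chac1 (0.47) and Xbp1 (0.28) had none, so their differences could not change. Fragments per gene (FPKM multiplied by transcript length, then summed), an alternative chosen after seeing the data, gave -0.53 for Pdia6, -0.79 for Pdia4, -0.39 for Hsp90b1 and 0.66 for Trib3. With the experiment as a block on that scale, Pdia4 (adjusted p = 0.0314) and Pdia6 (adjusted p = 0.0457) passed, against 12.9% of all genes.

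**Figure D5:**
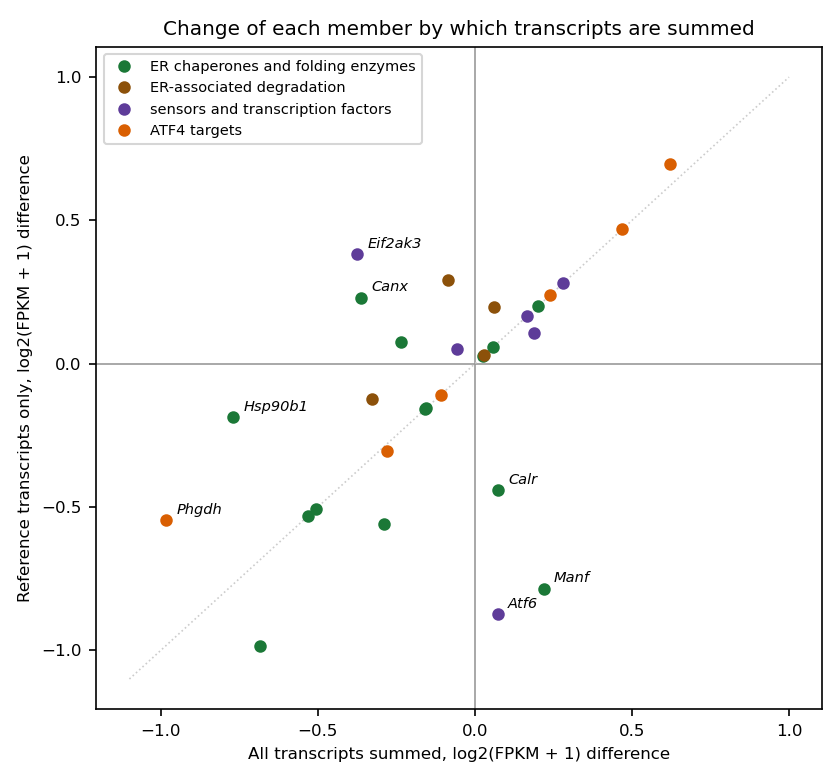
Difference of the 30 tested genes above 0 in every library with all transcripts summed (horizontal axis) and with reference transcripts only (vertical axis), both on the log2(FPKM + 1) scale, coloured by role; the dotted line marks equal values. Points off the line are genes whose reads lay partly on assembled transcripts: Calr, Manf and Atf6 lie below it, and Canx, Eif2ak3, Hsp90b1 and Phgdh above it.

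Besides 8 of the listed genes, 5 other tested genes held an ERSE in their promoter, and the median difference of these 13 was -0.24, beside -0.18 for all genes. Of the 13, 0 passed (limma) and 3 had an unadjusted p under 0.05, beside 25.6% of all genes. The 3 were Hsp90b1 and Pdia6, both lower, and Syvn1, higher. The 5 were Pan2 (-0.12), Adcy3 (-0.49), Alg12 (-0.38), Spats2l (-0.21) and Hnrnpa3 (-0.31), and Alg12 encodes a mannosyltransferase of ER glycan assembly.

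Among other genes of these pathways 1 of 125 tested passed as higher and 2 as lower (2.55% and 2.52% of all genes). Among further ER folding enzymes 0 of 16 passed (3 with an unadjusted p under 0.05, all lower), and among glycosylation and translocation genes 0 of 23 (6, all lower, beside 18% of all genes). Of these 23, 17 were lower in both experiments, beside 54.2% of all genes, with a median of -0.23. Further degradation genes gave 0 of 13 called (3 with an unadjusted p under 0.05), other stress transducers 0 of 10 (1), aminoacyl-tRNA synthetases 0 of 12 (0) and cytosolic heat shock genes 0 of 13 (3). Of all genes 25.6% had an unadjusted p under 0.05. With the experiment as a block, Uggt1, the folding sensor of glycoproteins, passed (18.6 and 17.1 against 9.96 and 9.58 FPKM; adjusted p = 0.0441), and so did Erlec1, a lectin of degradation (17.0 and 14.7 against 8.30 and 5.53 FPKM; adjusted p = 0.0323). Both were chosen after their values were seen, and with reference transcripts alone their differences were -0.021 and -0.057.

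Among eIF2, its exchange factor and its kinases 1 of 11 passed: Eif2b4, a subunit of the exchange factor, was listed at 0 in both reporter negative libraries, while the reporter positive libraries gave 25.6 and 31.7 FPKM (adjusted p = 0.00466). Both files at 0 mark a transcript of Eif2b4 as fully covered, so a failed estimate can give these values. Without reporter negative replicate 2, where only 3 genes passed in all and its remaining reporter negative value was again 0, it did not pass (adjusted p = 0.0522). Further ATF4 targets gave 0 of 14 called, with 8 at an unadjusted p under 0.05 (25.6% of all genes). Of the 8, 5 were higher (7.59% of all genes were) and 3 lower (18% of all genes). The 2 with the smallest p, named after their values were seen, were Nupr1, a stress-induced chromatin protein, and Slc7a11, the cystine transporter. Nupr1 gave 27.4 and 16.1 FPKM in reporter negative and 59.3 and 59.7 in reporter positive libraries (1.46 ± 0.27; adjusted p = 0.0535, and 0.029 with the block). Slc7a11 gave 2.63 and 3.17 against 6.30 and 7.45 FPKM (1.01 ± 0.20; adjusted p = 0.0611, and 0.0405 with the block).

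In serine and amino acid supply 2 of 13 genes fell (2.52% of all genes did), both enzymes of folate-dependent one-carbon metabolism in the cytosol. Shmt1, which moves a carbon unit from serine to folate, gave 42.2 and 37.4 FPKM in reporter negative and 19.0 and 13.5 in reporter positive libraries (-1.26 ± 0.21; adjusted p = 0.0451). Mthfd1, the next enzyme, gave 32.0 and 41.1 against 17.2 and 16.9 FPKM (-1.05 ± 0.18; adjusted p = 0.0462). With the block 4 of 13 passed (10.4% of all genes did), and the median of the list was -0.38 beside -0.18. Besides Shmt1 and Mthfd1 these were Slc1a4 and Slc7a1, named after their values were seen. Slc1a4 gave 6.35 and 10.7 FPKM against 2.32 and 2.67 (-1.41, adjusted p = 0.0321 with the block). Slc7a1 gave 21.9 and 39.7 against 12.9 and 15.9 (-0.995, adjusted p = 0.0456 with the block). With 1 library left out the differences were -1.49 to -1.02 for Shmt1 and -1.23 to -0.87 for Mthfd1, and neither passed (adjusted p = 0.112 to 0.223 and 0.0706 to 0.257), in fits where 3 to 179 genes passed in all. Median-of-ratios scaling gave -1.05 for Shmt1 (adjusted p = 0.0761) and -0.84 for Mthfd1 (adjusted p = 0.0514).

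Marker genes of other states moved with the fractions. Integrin alpha6 (Itga6), used in the sort, gave 331 and 410.4 FPKM in reporter negative and 181 and 205 in reporter positive libraries (adjusted p = 0.0565, and 0.019 with the block). Cd44, the other sort gene, gave 81.5 and 112 against 88.0 and 81.3 (adjusted p = 0.616). Of 7 tested markers of differentiating keratinocytes 5 rose (2.55% of all genes did), with sums of 1058 and 1076 FPKM against 3599 and 3957. Of the 7, 5 were higher in both experiments, 1 was lower in both and 1 went opposite ways. Of 4 basal markers, all lower with an unadjusted p under 0.05, 1 fell (2.52% of all genes did), and 3 with the block. With the block 10.4% of all genes passed in either direction. The sums of the basal markers were 1243 and 1429 against 566 and 587. Krt1, Krt5 and Krt14 were not analysed here. The part of these markers in the differences given above was not tested. Plasma cells are rich in ER chaperones, and their defining markers Jchain and Mzb1 were at 0 in 3 libraries and at 0.087 and 0.036 FPKM in the reporter negative library of experiment 2. Sdc1 (syndecan), a marker of plasma cells that keratinocytes make too, gave 416 and 461 against 659.9 and 799 FPKM (adjusted p = 0.0919, and 0.0285 with the block). Fibroblast markers summed to 28.1 and 43.9 FPKM in reporter negative libraries (experiments 1 and 2) and to 13.2 and 28.7 in reporter positive ones, lower in both experiments, with 0 of 5 called and 2 at an unadjusted p under 0.05, both lower, and a median of -0.76. Endothelial markers summed to 3.40 and 9.46 against 2.45 and 2.62, and leukocyte markers to 5.35 and 6.60 against 6.73 and 12.7. The part of these cells in the differences was not tested.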

How the data were processed

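The deposited tables are Cufflinks transcript files that give an FPKM value, its interval and its coverage for each transcript inside 1 attribute field, per the file headers. The authors used TopHat for alignment and Cufflinks for abundance (build mm9), as the submitters' processing notes say, which give no versions here. Libraries of messenger RNA were made with an Illumina kit, per the labels' protocols. The 4 libraries hold 3.14 to 3.76 aligned gigabases, recovered as coverage over FPKM; the number of reads is unknown. The interval of the listed genes had a median half-width of 5.18% to 6.81% per library, which covers counting error only.

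Transcripts under 200 exonic bases, which carried 95.1% to 98.9% of all FPKM, were left out, and the rest were summed per gene. Of 96734 reference transcripts 84047 found their gene in GENCODE M21 by transcript identifier (its coordinates, of another build, were not used), and 5138 by the gene identifier in the files. The others, and every assembled transcript, were given to the gene on whose exons at least 50% of their length lay on the same strand (11.8% to 13.3% of FPKM). A gene entered the test if it reached 1 FPKM in 2 or more libraries. The test was limma 3.58.1 (R 4.3.3, lmFit and eBayes with trend) on log2(FPKM + 1), a pseudocount of 1, two-sided, with Benjamini-Hochberg adjustment over all 11969 genes and 0.05 as the threshold. Permuting 2 against 2 libraries exactly gives no p under 0.333 and was not used. The test was checked on simulated data in 5 draws. Of the genes made to differ by a factor of 2, only 0.2% passed, and 38.9% of those made to differ 4-fold. False calls averaged 2. In these simulations a 2-fold difference was thus almost always missed. Each draw changed 200 genes and shuffled the spreads among genes, unlike the data, so these shares need not hold for the data. A gene that did not pass is not shown to be unchanged, and its 95% interval gives the range left to it (for Hspa5 -0.55 to 0.24). Tables were built with Python 3.11.15 and pandas 2.3.3.

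The titles number the experiment, so same-numbered libraries share an experiment; their deviations from the group means had a correlation of 0.17 across 11969 genes and 0.31 across the 11496 above 0 in every library. The main test has no block, and the block is given beside each result that it changes. The 18 alternatives listed first cover pseudocount, filters, scaling, block, variance model, transcripts summed and each library left out; 2 more, with fragments per gene, were chosen after seeing the data. A gene at exactly 0 is described only as listed at 0. The members and lists were chosen with earlier results of these data known. Named genes are all 35 members, up to 3 called genes of each further list, Itga6 and Cd44; others are marked where named. Promoters and their motifs came from the RefSeq table and were described without a test.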

Additional observations from a re-analysis of the deposited data

How the results depend on the processing

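Of 32 members 14 kept their direction in each of the 20 alternatives in which they had a value, which was 18 for Syvn1 and 19 for Chac1. The filters on low values and zeros, the block and the variance model cannot change the difference of a gene. Direction was therefore tried only by the pseudocount, the scalings, the transcripts summed, fragments per gene and the libraries left out. The count of called genes (607) was 4 with no filter on low values, 1209 with genes at 0 left out, 973 with robust variance, 95 with reference transcripts only, 312 with each gene's most abundant transcript and 3 to 179 with 1 library left out. With the experiment as a replicate block it was 1250, with the block and no zeros 3144, and with fragments per gene and the block 1544. The count of called members (0) was 1, 6 and 2 with zeros left out, with the block as well, and with fragments per gene and the block, and 0 to 1 with 1 library left out. The count of called genes in the further lists (3) was 1 with a pseudocount of 0.1, 0 with no filter, 5 with a filter at 5 FPKM, 8 with zeros left out, 9 with the block, 28 with both, 1 without trend, 8 with robust variance, 1 with reference transcripts only, 1 with the most abundant transcript, 11 with fragments and the block and 0 to 3 with 1 library left out.

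The median of the chaperones was 0.053 with median-of-ratios scaling, -0.072 with quantile normalization and -0.26 to -0.097 with 1 library left out. That of degradation genes was 0.24 and 0.17 under these scalings, -0.028 with zeros left out, with or without the block, 0.20 with reference transcripts only, 0.24 with the most abundant transcript and -0.16 to 0.083 with 1 library left out. That of sensors and factors was 0.31 with median-of-ratios scaling, 0.24 with quantile normalization, 0.053 with fragments per gene and -0.023 to 0.20 with 1 library left out. That of ATF4 targets was 0.27 and 0.22 under the scalings, -0.11 with a filter at 5 FPKM and 0.026 to 0.10 with 1 library left out.

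Directions turned as follows, and the cause was not tested. Median-of-ratios scaling: Hspa5 0.060, Dnajb11 0.053, Derl1 0.12, Ern1 0.086, Ppp1r15a 0.083 and Cd44 0.038. Quantile normalization: Derl1 0.026, Ern1 0.16 and Ppp1r15a 0.10. Reference transcripts only: Calr -0.44, Canx 0.23, Dnajc3 0.075, Manf -0.79, Derl1 0.29, Atf6 -0.87, Ern1 0.051, Eif2ak3 0.38 and Cd44 0.016. Most abundant transcript: Calr -0.66, Canx 0.23, Dnajc3 0.075, Manf -0.25, Herpud1 0.24, Sel1l -0.095, Derl1 0.35, Atf6 -0.21 and Ern1 0.051. Fragments per gene, with or without the block: Calr -0.097 and Atf6 -0.17. With 1 library left out the range was -0.043 to 0.19 for Calr, -0.020 to 0.42 for P4hb, -0.0036 to 0.056 for Dnajb9, -0.40 to 4.24 for Hyou1, -0.50 to 0.93 for Manf, -0.16 to 0.28 for Sel1l, -0.22 to 0.050 for Derl1, -0.025 to 0.083 for Derl2, -0.076 to 0.41 for Atf5, -0.23 to 0.38 for Atf6, -0.36 to 0.25 for Ern1 and -0.40 to 0.053 for Cd44. A group left with 1 library was taken to vary like the other. At 2 libraries per fraction, a difference that did not pass is not shown to be absent.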
